A study of Mus musculus with 3 samples.

Results

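Arg1, Arg2, Nos2, Slc7a1, Slc7a2, Ass1, Odc1 and Ido1 bring in, use or remake arginine, or break down tryptophan. The 8 genes were taken by symbol, and all 8 were found among the 32285 genes of the count matrices. Their RNA was measured in macrophages, neutrophils, monocytes, endothelial cells and tumour cells, each gated on marker genes, in 3 single-cell RNA-seq libraries of mouse tumour tissue. Among these cell types, Arg1 was highest in macrophages, Arg2 in neutrophils, and Odc1 and Slc7a1 in tumour cells. Within macrophages, Arg1 was highest in the Flox+RI library, while Nos2 was highest in the library labelled CKO+RI.

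As background, arginine enters cells through the cationic amino acid transporters Slc7a1 (CAT1) and Slc7a2 (CAT2). The arginases Arg1, in the cytosol, and Arg2, in mitochondria, split it into ornithine and urea. Nos2, the inducible nitric oxide synthase, draws on the same arginine to make nitric oxide and citrulline, and Ass1 (argininosuccinate synthase) starts the way from citrulline back to arginine. Odc1 (ornithine decarboxylase) turns ornithine into putrescine, the first polyamine, which dividing cells need. Ido1 opens the ring of tryptophan and so starts the kynurenine pathway. Mouse macrophages are known for opposing programs marked by Arg1 and Nos2, and the loss of arginine or tryptophan around T cells is known to hold back their division.

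All tumours grew from LLC1-sgLkb1, a line of Lewis lung carcinoma whose genotype is labelled as an LKB1 knockdown, LKB1 being a tumour suppressor kinase. Per the series' design, the cells were injected into the tail vein to seed lung lesions on the unirradiated side, and 3 weeks later under the skin on the irradiated side. The library labelled CKO+RI and the Flox+RI library carry the treatment label of radiation with an immune checkpoint inhibitor (RI), and the Flox+ICI library that of the inhibitor alone (ICI). The design names Sfrp2ΔCol1a2 and Sfrp2 fl/fl hosts, and the titles CKO and Flox, which the labels do not spell out, are read as these. Sfrp2 encodes a secreted Wnt-binding protein, and the Col1a2 promoter is active in collagen-producing cells such as fibroblasts, which are none of the 5 cell types described. The tissue is labelled only as tumour. The inhibitor, the radiation dose, the strain, age and number of the mice, and the library chemistry are not given in the sources used here. With 1 library a group, no difference between libraries has a replicate check and none was tested.

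The libraries held 161250286 UMIs (counted transcript molecules) in 9300 barcodes for the library labelled CKO+RI, 101840883 in 13340 for Flox+RI and 75543561 in 10842 for Flox+ICI. After filtering, 29866 of 33482 barcodes were kept, with median depths of 13406, 2576.5 and 3018 UMIs a cell in the same order. Any pair of libraries shared 31 to 37 barcodes. Sfrp2, the targeted gene, does not back the label CKO, with 46 UMIs over all kept cells of that library against 3 in Flox+RI and 6 in Flox+ICI, 30 of the 46 lying in mesothelial cells. In the fibroblast gate, Sfrp2 had 5, 1 and 3 UMIs (CKO+RI, Flox+RI, Flox+ICI) in 115, 40 and 216 cells. The deleted part of the gene is not given, so a 3' tag outside it would check nothing. The macrophage gate held 551, 1733 and 911 cells, the neutrophil gate 651, 2133 and 1705, the monocyte gate 292, 216 and 836, the endothelial gate 314, 116 and 454, and the tumour gate 4669, 4235 and 3167 (CKO+RI, Flox+RI, Flox+ICI). All markers of its own list were detected in each gate of each library. In the tumour gates, Prl2c2 (17, 19 and 2 UMIs) and Prl2c3 (4, 2 and 3) were barely detected, and Igf2bp1 had 2 UMIs in Flox+ICI. Xist, transcribed from an inactive X chromosome, stood at 2.76 to 3.44 CPM (UMIs per 1000000 UMIs of the gate) in the tumour gates, against 191 to 398 in the macrophage, monocyte and endothelial gates.

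The 8 genes lie on 6 chromosomes of GRCm38 (GENCODE vM21). Arg1 spans chr10:24915221-24927484 on the minus strand (8 exons) and Arg2 chr12:79130777-79156301 on the plus strand (8 exons). Nos2 spans chr11:78920787-78960254 on the plus strand (26 exons). Of the transporters, Slc7a1 spans chr5:148327410-148399904 on the minus strand (13 exons) and Slc7a2 chr8:40862396-40922308 on the plus strand (12 exons). Ass1 spans chr2:31470207-31520672 on the plus strand (16 exons), Odc1 chr12:17544794-17551505 on the plus strand (12 exons) and Ido1 chr8:24584136-24597009 on the minus strand (10 exons). All 8 are protein-coding. Arg2 overlaps Gm48780 and Vti1b on the opposite strand, and whether the counting used strand is not given. Odc1 has 6 near-identical copies elsewhere in the genome and Ass1 has 1 (at least 95% identity over at least 200 bases), none of them counted in the matrices, so reads shared with these copies make both counts uncertain.

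RefSeq promoters (GRCm38.p6) were at hand for 3 of the 8 genes. That of Slc7a1 is shown, since this carrier is among the genes highest in tumour cells and the window lies wholly outside the annotated gene. It holds the 250 bases before the first of RefSeq's starts, at chr5:148399905-148400154, 5′ to 3′ on the minus strand, with the GC box (GGGCGG, or CCGCCC read on the other strand) in capitals.
Slc7a1: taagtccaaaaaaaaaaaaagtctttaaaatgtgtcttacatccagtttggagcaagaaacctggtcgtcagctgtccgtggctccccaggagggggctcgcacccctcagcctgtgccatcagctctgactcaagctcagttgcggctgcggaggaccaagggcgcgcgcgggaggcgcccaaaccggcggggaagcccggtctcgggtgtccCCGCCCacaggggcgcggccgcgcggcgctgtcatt
The window is 62.4% G or C, against a median of 52.4% over 32851 promoters of the same length. Its 1 GC box lies 36 bases before that start, and 32.7% of all promoters hold one. A match describes letters and is no sign of a bound factor.

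Which cell types carry each gene was asked across all 3 libraries, with the UMIs of a gate summed per library and given as CPM. Each gate was set against the mean of the other 4 on the log scale in edgeR's quasi-likelihood test, with the library as a term (15 sums, 12363 genes a gate). The 3 libraries differ in treatment, so that spread holds the treatment too, and whether each came from 1 mouse or a pool is not given. Of 40 pairs of gene and gate, 35 could be tested. A gene was higher in the gate in 13 pairs and lower in 12 at an adjusted p under 0.05, against 25.2% higher and 21.7% lower of all tests over all genes. By gate, 20.2% of genes were higher and 14.9% lower in macrophages, 24.1% and 24.7% in neutrophils, 19.2% and 15.8% in monocytes, 22.2% and 22.2% in endothelial cells, and 40.5% and 31.1% in tumour cells. Ido1 had too few UMIs for the test.

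Arg1 was a macrophage transcript in all 3 libraries. It stood at 898 CPM in macrophages of the library labelled CKO+RI, 1504 for Flox+RI and 306 for Flox+ICI, above every other gate of the same library. The macrophage gate was 5.91 log2 units (SE 0.45) above the mean of the other 4 gates (edgeR adjusted p = 1.58e-07). Monocytes came next, with 30.7, 827 and 11.97 CPM in the same order, a spread that overlapped both the macrophages above and the neutrophils below. Their call (log2 2.17, SE 0.54, edgeR adjusted p = 0.0068) rested on the Flox+RI library. Without it, the monocyte value was 0.29 (edgeR adjusted p = 0.45). Neutrophils had 16.8, 30.8 and 4.02 CPM, tumour cells 5.22, 14.2 and 3.64, and endothelial cells 3.07, 14.4 and 1.81, and these neighbours overlapped. Tumour cells (log2 -2.81, SE 0.63, edgeR adjusted p = 0.0011) and endothelial cells (log2 -3.95, SE 0.86, edgeR adjusted p = 0.0018) were lower than the other gates.

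Arg2 was the neutrophil arginase of these tissues, with 479 CPM in the library labelled CKO+RI, 417 for Flox+RI and 522 for Flox+ICI. These 3 values lay close together and above every other gate, by 5.80 log2 units (SE 0.38) over the mean of the others (edgeR adjusted p = 1.77e-08). Macrophages had 22.4, 139 and 67.2 CPM and monocytes 11.03, 181 and 62.6, which overlapped each other, and both were higher than the log-scale mean of the other gates (log2 1.51 and 1.37, edgeR adjusted p = 0.011 and 0.031). On the plain scale both lay under the mean of the others, which the neutrophils set. The macrophage call was lost without the Flox+ICI library (log2 1.54, edgeR adjusted p = 0.13), and the monocyte call without Flox+RI (log2 0.68, edgeR adjusted p = 0.15) or without Flox+ICI (log2 1.51, edgeR adjusted p = 0.17). Tumour and endothelial cells held 1.55 to 4.20 CPM and were lower (log2 -4.17 and -4.51, edgeR adjusted p = 3.75e-05 and 0.000232).

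Nos2 had no single home. Macrophages had 53.6 CPM in the library labelled CKO+RI, 12.1 for Flox+RI and 8.05 for Flox+ICI, and monocytes 3.15, 54.3 and 1.595. Neutrophils held between 9.55 and 12.8 CPM and endothelial cells between 4.52 and 18.4, so the levels of these 4 host gates overlapped. Macrophages were above the other gates (log2 2.21, SE 0.56, edgeR adjusted p = 0.0069), but without the library labelled CKO+RI the value was 1.12 (edgeR adjusted p = 0.24). Tumour cells, at 0.338, 0.776 and 0.166 CPM, did not overlap any host gate and were lower (log2 -5.18, SE 0.77, edgeR adjusted p = 3.02e-05).

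Among the 5 gates, the 2 transporters had their highest mean level in different cells, Slc7a1 in tumour cells and Slc7a2 in macrophages. Slc7a1, the widely expressed carrier, had 41.1 CPM in tumour cells of the library labelled CKO+RI, 43.4 for Flox+RI and 83.9 for Flox+ICI. That was 1.36 log2 units (SE 0.21) above the other gates (edgeR adjusted p = 3.95e-05), although the endothelial values of 20.5, 41.7 and 34.4 CPM overlapped it across libraries. Neutrophils, at 5.61, 18.6 and 7.54 CPM, were lower than the other gates (log2 -1.18, edgeR adjusted p = 0.0052), a call that was lost without doublet removal (log2 -0.51, edgeR adjusted p = 0.077) and without the library labelled CKO+RI or Flox+ICI (edgeR adjusted p = 0.052 and 0.064). Slc7a2, the carrier induced in activated macrophages, stood at 40.7, 51.1 and 38.2 CPM in macrophages and was higher there (log2 4.69, SE 0.48, edgeR adjusted p = 3.23e-06). Monocytes had 5.52, 74.0 and 4.79 CPM, and their call (log2 2.96, edgeR adjusted p = 0.0035) was lost without Flox+RI (log2 0.93, edgeR adjusted p = 0.15). Neutrophils, endothelial cells and tumour cells held 0 to 3.07 CPM, and only the tumour cells were called lower (log2 -3.70, edgeR adjusted p = 0.0044), a call lost without the library labelled CKO+RI (log2 -2.38).

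Ass1, the recycling enzyme, was highest in monocytes, at 47.3 CPM in the library labelled CKO+RI, 72.4 for Flox+RI and 51.5 for Flox+ICI, and in macrophages, at 46.8, 50.9 and 57.4. These gates overlapped each other and both were higher than the rest (log2 1.52 and 1.54, edgeR adjusted p = 0.0023 and 0.00074). Neutrophils (8.01, 7.55 and 3.52 CPM) and tumour cells (16.5, 14.2 and 10.7 CPM) were lower (log2 -1.99 and -0.94, edgeR adjusted p = 0.0022 and 0.016). The tumour call was lost without Flox+ICI (log2 -0.69, edgeR adjusted p = 0.12). Endothelial cells had 26.6, 4.31 and 42.5 CPM, overlapped the tumour cells, and were called neither higher nor lower.

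Odc1, the entry to polyamines, was a tumour cell transcript. Tumour cells had 1586 CPM in the library labelled CKO+RI, 1566 for Flox+RI and 1992 for Flox+ICI, above every host gate (log2 2.53, SE 0.11, edgeR adjusted p = 7.51e-10). The host gates lay between 195 and 471 CPM, neutrophils highest at 414, 471 and 353, not overlapping the endothelial cells below them (324, 297.5 and 267). Macrophages (300.4, 239 and 202.5 CPM) and monocytes (239, 240.2 and 195 CPM) were lowest, overlapped each other, and were lower than the mean of the other gates (log2 -0.85 and -1.17, edgeR adjusted p = 0.00018 and 1.83e-05), as were endothelial cells (log2 -0.93, edgeR adjusted p = 6.59e-05). Neutrophils were higher on the log scale (log2 0.41, edgeR adjusted p = 0.013), a call lost with no filter on low counts (edgeR adjusted p = 0.24) and without the library labelled CKO+RI or Flox+ICI (edgeR adjusted p = 0.076 and 0.12). In the host gates, Odc1 stood at 9.81% to 30.1% of its level in the tumour gate of the same library, beside 5.49% to 19.6% for the summed tumour markers. Of these markers, Ccnd1 stood at 106%, 202% and 111% of its tumour level in endothelial cells (CKO+RI, Flox+RI, Flox+ICI). In macrophages of the library labelled CKO+RI it was 66.4%. Ccnd1 thus raises the summed share in those gates. Single markers differed widely in neutrophils (CKO+RI, Flox+RI, Flox+ICI). Krt8 stood at 27.7%, 24.5% and 15.5% of its tumour level there, and Krt18 at 31.4%, 27.0% and 15.2%. Hmga2 stood lower, at 14.9%, 13.1% and 6.19%, and so did Sema3a, at 7.01%, 6.40% and 6.07%. Odc1 in neutrophils was at 26.1%, 30.1% and 17.7%. The part of free tumour RNA in the host values was not tested.

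Ido1, the tryptophan enzyme, was nearly absent, with 45 UMIs over all kept cells. Of these, 29 lay in endothelial cells, 15 in the library labelled CKO+RI (15.3 CPM) and 14 in Flox+ICI (12.7 CPM), with 0 in the 116 endothelial cells of Flox+RI, where a count of 0 allows up to 4.31 CPM. These counts add up to under 20 UMIs in each comparison and were not compared. The tumour gates, with far more UMIs in all, held 6, 2 and 3 Ido1 UMIs (0.0472, 0.0282 and 0.0624 CPM). The macrophage and monocyte gates held 0, 0 and 1 each and the neutrophil gates none.

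**Figure D1:**
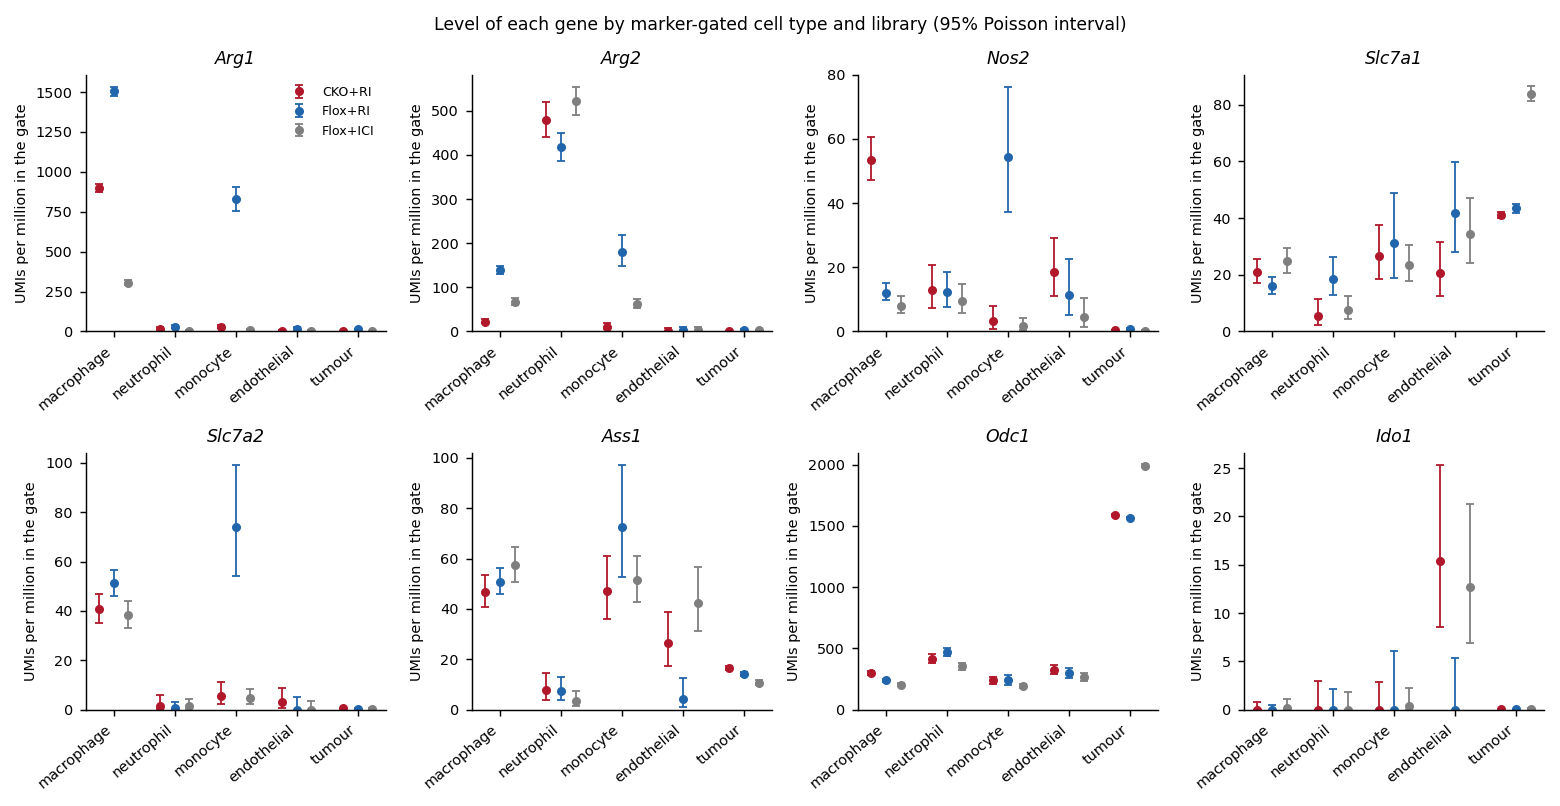
Level of each of the 8 genes (UMIs per 1000000 UMIs of the gate, 1 panel a gene) in the 5 gated cell types of the 3 libraries. Points are single libraries and bars are exact 95% Poisson intervals, which cover counting error only. Arg1 stands highest in macrophages (898, 1504 and 306), Arg2 in neutrophils and Odc1 in tumour cells, while the Flox+RI monocytes stand apart for Arg1, Nos2 and Slc7a2.

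The question for radiation added to the inhibitor is posed by Flox+RI against Flox+ICI, and that for the host genotype by the library labelled CKO+RI over Flox+RI. Both comparisons hold the Flox+RI library, so a trait of that library enters both with opposite sign. A gene was called when its ratio was at least 2-fold and the exact 95% counting interval left out 1, among genes whose UMIs in both libraries added up to 20 or more. In the library labelled CKO+RI over Flox+RI, 31 of 40 pairs of gene and gate could be called, and 2 were higher, 10 lower and 19 neither. In Flox+RI against Flox+ICI, 30 could be called, and 10 were higher, 1 lower and 19 neither. Over all genes, the share called either way in the library labelled CKO+RI over Flox+RI was 14.7% in macrophages, 20.2% in neutrophils, 15.9% in monocytes, 14.9% in endothelial cells and 13.5% in tumour cells. For Flox+RI against Flox+ICI it was 6.12%, 25.1%, 10.4%, 17.3% and 11.5% in the same order. The median log2 ratio over all genes lay between -0.13 and 0.13 except in neutrophils (-0.22 for the library labelled CKO+RI over Flox+RI, 0.39 for Flox+RI against Flox+ICI) and tumour cells of Flox+RI against Flox+ICI (-0.24).

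In macrophages, 2 of 7 genes with enough UMIs were called in each comparison. Arg1, at 898 CPM (95% interval 871 to 926) in the library labelled CKO+RI, was 1.67-fold lower (1.62 to 1.74) than the 1504 CPM (1476 to 1533) of Flox+RI and was not called. Flox+RI was in turn 4.92-fold higher (4.66 to 5.19) than the 306 CPM of Flox+ICI. The order was thus Flox+RI, then the library labelled CKO+RI, then Flox+ICI, with no overlap of the intervals. Arg2 was 22.4 CPM in the library labelled CKO+RI, 6.21-fold lower (5.07 to 7.69) than the 139 CPM of Flox+RI, and Flox+RI was 2.07-fold higher (1.83 to 2.35) than the 67.2 CPM of Flox+ICI. For Arg2 the library labelled CKO+RI was the lowest of the 3. The call of Flox+RI over Flox+ICI was lost with Leiden clusters (log2 0.99) and a mean over cells (0.96). Macrophage Arg2 was 4.68%, 33.4% and 12.9% of the neutrophil level of the same library, beside 0.303%, 1.02% and 0.408% for the 9 summed neutrophil markers, all detected.

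Nos2 in macrophages stood at 53.6 CPM (47.1 to 60.7) in the library labelled CKO+RI, 12.1 (9.71 to 14.95) in Flox+RI and 8.05 (5.75 to 10.96) in Flox+ICI. It was 4.42-fold higher (3.45 to 5.71) in the library labelled CKO+RI than in Flox+RI, while the ratio of 1.51 (1.02 to 2.25) for Flox+RI over Flox+ICI was not called. Slc7a1, Slc7a2, Ass1 and Odc1 lay between 0.796 and 1.32 times in the library labelled CKO+RI over Flox+RI and between 0.642 and 1.34 times in Flox+RI against Flox+ICI, and none was called. Of all genes in macrophages, 6.29% were called higher and 8.4% lower in the library labelled CKO+RI than in Flox+RI, and 3.06% higher and 3.05% lower in Flox+RI than in Flox+ICI.

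**Figure D2:**
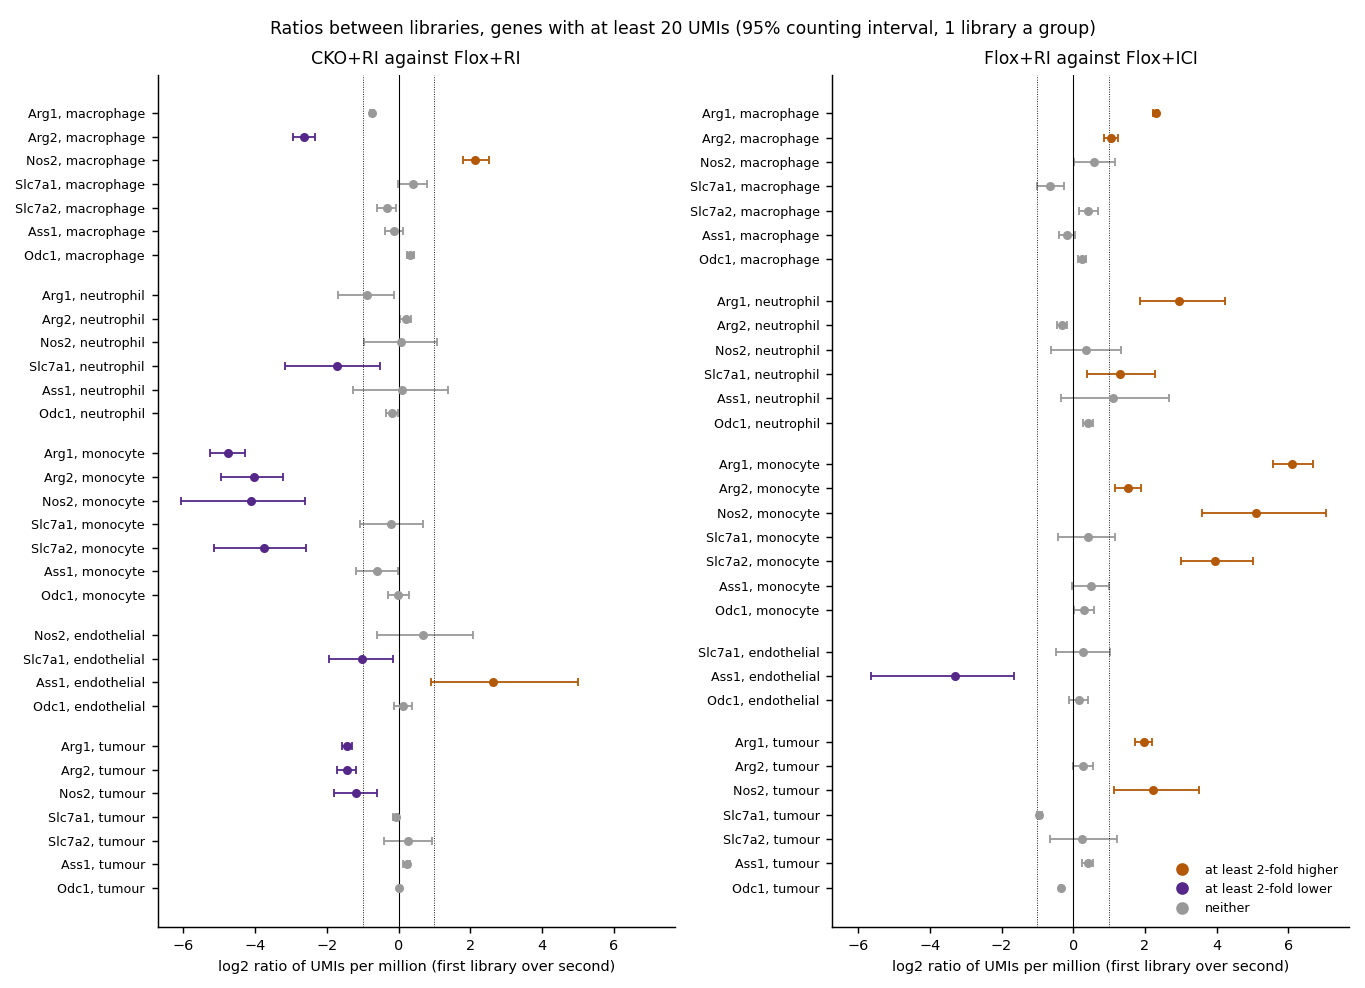
Log2 ratios of CPM in the library labelled CKO+RI over Flox+RI (left) and in Flox+RI against Flox+ICI (right) for every gene and gate with at least 20 UMIs, with exact 95% counting intervals; dotted lines mark 2-fold. Nos2 in macrophages (4.42-fold) and Ass1 in endothelial cells (6.17-fold) are the 2 higher pairs on the left, and 10 pairs on the right are higher, 4 of them in monocytes.

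The 3 libraries differed in the kind of macrophage they held. Macrophages with more Mrc1, Folr2 and Ccl8, genes of resident-like tissue macrophages, made up 75.7% of the gate in the library labelled CKO+RI, 21.8% for Flox+RI and 26.8% for Flox+ICI. Those with more Gpnmb, Trem2 and Hmox1, genes of lipid- and haem-handling macrophages, made up 19.6%, 71.7% and 69.0%. These states cut a range by the larger of 2 scores, and 10 to 41 cells a library lay near the cut on either side. Another 26, 112 and 38 cells had equal scores and lay in neither state. Trem2 is also a marker of the macrophage gate.

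Within both states, as in the whole gate, Arg1 was lower and Nos2 higher in the library labelled CKO+RI than in Flox+RI. Arg1 in the Gpnmb state was 1081 CPM in the library labelled CKO+RI, 1659 for Flox+RI and 321 for Flox+ICI, and in the Mrc1 state 852, 1060 and 285. The library labelled CKO+RI was thus 1.54-fold (1.44 to 1.64) and 1.24-fold (1.17 to 1.32) lower than Flox+RI within the states, against 1.67-fold in the whole gate, and stayed under 2-fold. Flox+RI was 5.17-fold (4.86 to 5.50) and 3.72-fold (3.34 to 4.16) higher than Flox+ICI in the Gpnmb and Mrc1 states.

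Nos2 in the Gpnmb state was 61.5 CPM in the library labelled CKO+RI, 15.3 for Flox+RI and 7.73 for Flox+ICI, and 4.01-fold higher (2.83 to 5.65) in the library labelled CKO+RI than in Flox+RI. In the Mrc1 state it was 51.6, 1.18 and 9.44 CPM, with only 2 UMIs in Flox+RI, a ratio of 43.9 (11.98 to 365) for the library labelled CKO+RI over Flox+RI. Arg2 was 31.3, 169.6 and 83.0 CPM in the Gpnmb state and 19.9, 42.9 and 29.8 in the Mrc1 state. It was lower in the library labelled CKO+RI than in Flox+RI within each, by 5.43-fold (3.795 to 8.03) and 2.16-fold (1.53 to 3.03).

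Slc7a2 and Ass1 showed orders of the libraries within the states that the whole gate hid, and the order differed between the 2 states. In Mrc1 state macrophages Slc7a2 was 27.5 CPM in the library labelled CKO+RI, 12.4 for Flox+RI and 53.0 for Flox+ICI, and Ass1 was 41.2, 10.6 and 60.3. The Flox+RI values rest on 21 Slc7a2 and 18 Ass1 UMIs in 378 cells. Flox+RI was the lowest library for both, with Ass1 3.895-fold higher (2.38 to 6.75) in the library labelled CKO+RI than in Flox+RI and 5.69-fold lower (3.39 to 10.1) in Flox+RI than in Flox+ICI. In the Gpnmb state Slc7a2 was 84.7, 63.6 and 32.9 CPM and Ass1 was 68.6, 64.8 and 53.0. There the library labelled CKO+RI was 1.33 and 1.06 times Flox+RI for Slc7a2 and Ass1, and Slc7a2 was 1.93-fold higher (1.56 to 2.41) in Flox+RI than in Flox+ICI.

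**Figure D3:**
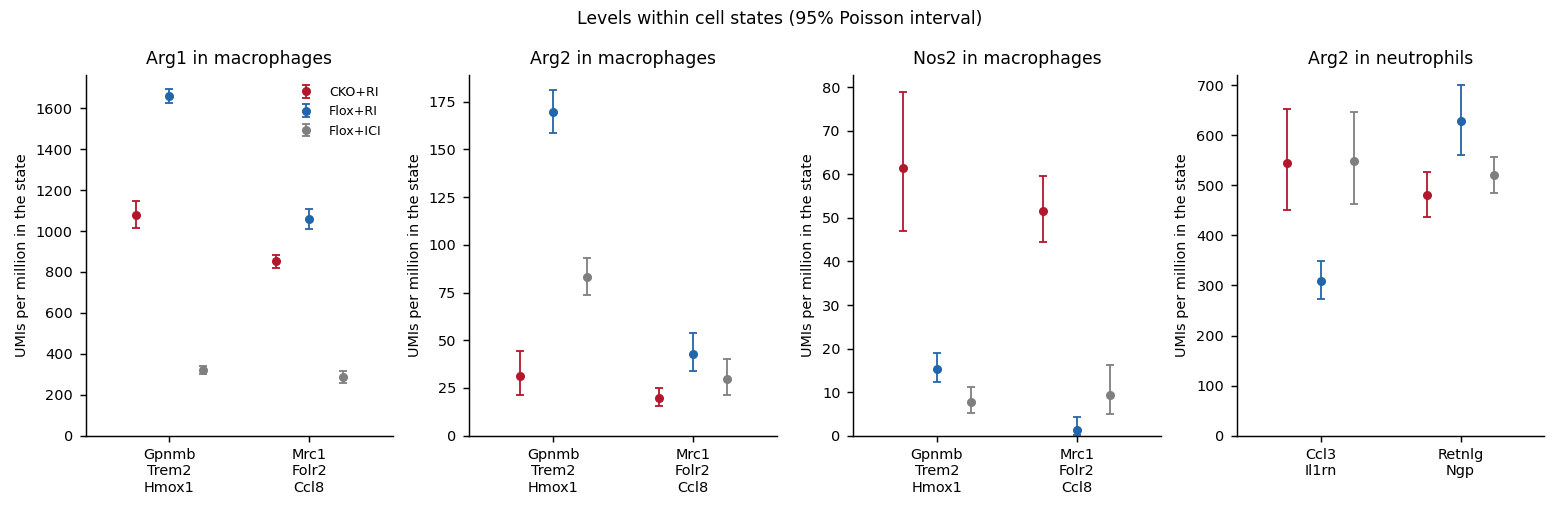
Levels (UMIs per 1000000 UMIs of the state) of Arg1, Arg2 and Nos2 in macrophages and of Arg2 in neutrophils, split by the marker genes named under each axis; points are single libraries and bars exact 95% Poisson intervals. Nos2 stands at 61.5 and 51.6 in both macrophage states of the library labelled CKO+RI. Among the neutrophil states, Arg2 is lowest (309) in the Ccl3 and Il1rn neutrophils of Flox+RI.

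Macrophages were uneven in Arg1. A UMI was found in 53.0% (library labelled CKO+RI), 63.5% (Flox+RI) and 29.5% (Flox+ICI) of macrophages, with 8040, 4270 and 5361 UMIs in the median cell. Thinned to 1000 UMIs a cell, which left out 29, 225 and 35 shallower cells, the shares were 33.5% (29.5 to 37.8), 51.3% and 14.8%. Tumour cells, thinned likewise, gave 0.497%, 1.80% and 0.287%. Cells with at least 10 Arg1 UMIs per 10000 made up 26.3%, 38.8% and 9.77% of the macrophages. The 56 macrophages with most Arg1 in the library labelled CKO+RI held 61.2% of its Arg1 UMIs there, the 174 in Flox+RI 49.9% and the 92 in Flox+ICI 74.7%.

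Nos2 came from few macrophages. A UMI was found in 10.2% of them in the library labelled CKO+RI, 3.52% for Flox+RI and 1.98% for Flox+ICI, and in 2.87%, 1.13% and 0.457% after thinning. The cell with the most had 24 Nos2 UMIs (library labelled CKO+RI), against 5 in each of the other 2 libraries. After thinning, cells with an Arg1 UMI had a Nos2 UMI in 4.57% (1.99 to 8.81) of cases in the library labelled CKO+RI, against 2.02% (0.815 to 4.11) of cells without one, and the intervals overlapped. Slc7a2, which feeds both enzymes, was found in 7.43% (4.02 to 12.4) of the cells with Arg1 there, against 0.865% (0.179 to 2.51) of those without. In Flox+RI these shares of Slc7a2 were 5.43% and 4.22%, and in Flox+ICI 3.08% and 4.16%, with overlapping intervals in both.

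**Figure D4:**
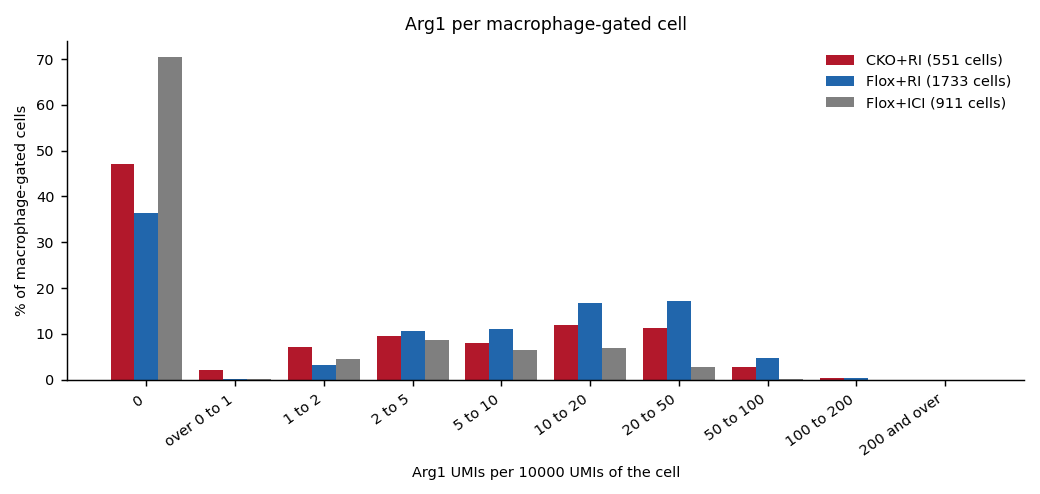
Percent of macrophage-gated cells (y axis) by the number of Arg1 UMIs per 10000 UMIs of the cell (x axis, unequal bins), for the library labelled CKO+RI (551 cells), Flox+RI (1733) and Flox+ICI (911). Flox+RI has the lowest share of cells at 0 (36.5%) and 38.8% of its cells at 10 or more, against 26.3% (library labelled CKO+RI) and 9.77% (Flox+ICI).

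In monocytes, 4 of 7 genes with enough UMIs were called in each comparison, namely Arg1, Arg2, Nos2 and Slc7a2, with the shared Flox+RI library the highest for each. Arg1 had 39 UMIs, 30.7 CPM, for the library labelled CKO+RI, 503 (827 CPM) in Flox+RI and 30 (11.97 CPM) in Flox+ICI. It was 26.9-fold lower (19.4 to 38.3) in the library labelled CKO+RI than in Flox+RI, and 69.1-fold higher (47.8 to 104) in Flox+RI than in Flox+ICI. Arg2 (11.03, 181 and 62.6 CPM), Nos2 (3.15, 54.3 and 1.595) and Slc7a2 (5.52, 74.0 and 4.79) were also highest in Flox+RI, and Arg2 alone of the 4 was lowest in the library labelled CKO+RI. They were 16.4-fold, 17.2-fold and 13.4-fold lower in the library labelled CKO+RI than in Flox+RI, and 2.89-fold, 34.0-fold and 15.5-fold higher in Flox+RI than in Flox+ICI. Slc7a1, Ass1 and Odc1 were not called in either. Over all genes in monocytes, 8.72% were higher and 7.13% lower in the library labelled CKO+RI than in Flox+RI, and 4.83% higher and 5.54% lower in Flox+RI than in Flox+ICI.

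Macrophage markers in the monocyte gate were also highest in Flox+RI, where the 8 summed markers stood at 15.9% of their macrophage level, beside 5.23% (library labelled CKO+RI) and 6.40% (Flox+ICI). Of the 216 monocyte-gated cells of Flox+RI, 132 lay in clusters named as macrophages, 51 in the monocyte cluster and 33 elsewhere. Those 132 cells held 479 of the 503 Arg1 UMIs, at 1138 CPM, and 1967 CPM of the 8 summed macrophage markers. In the monocyte cluster, Arg1 was 8.43 CPM (library labelled CKO+RI, 268 cells), 30.9 CPM (Flox+RI, 51 cells, 4 UMIs) and 3.06 CPM (Flox+ICI, 765 cells). The macrophage markers there summed to 771, 912 and 811 CPM, all 8 of them being detected in the whole gate of each library. Arg1, Nos2 and Slc7a2 had under 20 UMIs there and could not be called.

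Arg2 in the monocyte cluster was 10.1 CPM in the library labelled CKO+RI, 85.0 for Flox+RI and 58.5 for Flox+ICI. It was still called lower in the library labelled CKO+RI than in Flox+RI, while Flox+RI over Flox+ICI was no longer 2-fold (log2 0.60). With monocytes restricted to that cluster, which was chosen after seeing the data, Arg1 in monocytes lay under the mean of the other gates (log2 -1.58, edgeR adjusted p = 0.00087), and the Arg2 and Slc7a2 calls were lost (edgeR adjusted p = 0.26 and 0.98).

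**Figure D5:**
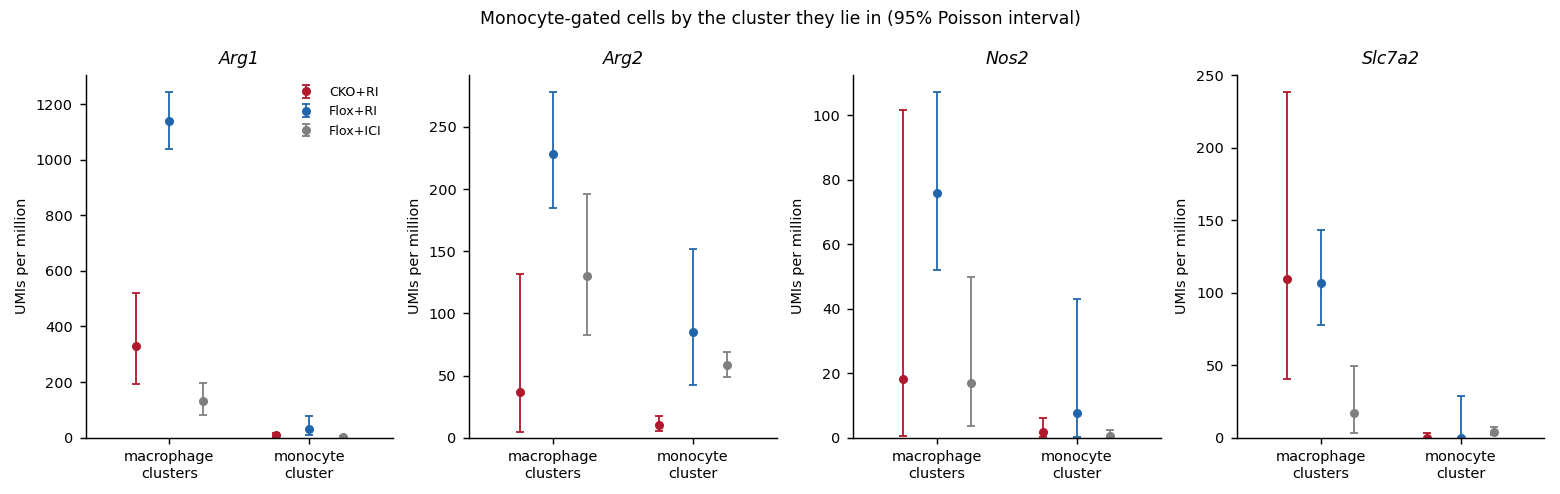
Levels (UMIs per 1000000 UMIs of the cells) of Arg1, Arg2, Nos2 and Slc7a2 in monocyte-gated cells that lie in macrophage clusters (10, 132 and 51 cells of CKO+RI, Flox+RI and Flox+ICI) or in the monocyte cluster (268, 51 and 765 cells), with exact 95% Poisson intervals. In Flox+RI, Arg1 stands at 1138 in the cells of macrophage clusters and at 30.9 in those of the monocyte cluster.

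The Flox+RI neutrophils stood apart from the other 2 gates in depth and markers. The median neutrophil held 1813 UMIs in the library labelled CKO+RI, 742 for Flox+RI and 1049 for Flox+ICI, and the summed neutrophil markers stood at 142885, 44102 and 153596 CPM in the same order. Xist stood at 55.3, 139 and 63.3 CPM. The clusters named as neutrophils held 580 and 860 cells of Flox+RI, together fewer than its 2133 gated cells. A cluster in no class, closest to neutrophils by its markers, held 2, 2713 and 68 cells (CKO+RI, Flox+RI, Flox+ICI). The gated neutrophils were not split by cluster, and the part of these differences in the neutrophil values was not tested. Arg2 stood between 417 and 522 CPM in neutrophils. The library labelled CKO+RI was 1.15 times Flox+RI (1.03 to 1.28), and Flox+RI 1.251-fold lower (1.14 to 1.38) than Flox+ICI, and neither was called. Neutrophils with more Retnlg and Ngp, genes of freshly released cells, had 480, 628 and 520 CPM, and those with more Ccl3 and Il1rn, genes of activated cells, had 545, 309 and 549. Within Flox+RI the Ccl3 and Il1rn state was 2.03-fold lower (1.72 to 2.40) than the other, while the ratio between states was 1.13 (0.919 to 1.39) in the library labelled CKO+RI and 1.06 (0.878 to 1.26) in Flox+ICI. The difference between these ratios was not tested. The Ccl3 and Il1rn state made up 17.5%, 46.1% and 14.7% of the neutrophils. In the same order, 59, 486 and 208 gated cells had equal scores and lay in neither state. Retnlg is also a marker of the neutrophil gate.

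Of the other genes in neutrophils, Slc7a1 had 7, 32 and 15 UMIs (5.61, 18.6 and 7.54 CPM). It was 3.32-fold lower (1.44 to 8.90) in the library labelled CKO+RI than in Flox+RI and 2.47-fold higher (1.30 to 4.90) in Flox+RI than in Flox+ICI. Both calls were lost, with the direction turned, when doublets were kept (log2 0.05 and -0.40). The call of Flox+RI over Flox+ICI was also lost when ratios were divided by the median ratio over all genes (log2 0.89). Arg1 was 7.66-fold higher (3.62 to 18.7) in Flox+RI than in Flox+ICI, on 53 and 8 UMIs. That Arg1 was 1.87%, 2.05% and 1.31% of the macrophage level of the same library, beside 2.18%, 6.40% and 2.26% for the summed macrophage markers (all 8 detected), and the part of macrophage RNA in it was not tested. Of all genes in neutrophils, 6.59% were higher and 13.6% lower in the library labelled CKO+RI than in Flox+RI, and 19.4% higher and 5.7% lower in Flox+RI than in Flox+ICI.

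Tumour cells were the most deeply counted, and neither Odc1 nor Slc7a1, the genes highest there, was called. The library labelled CKO+RI was 1.01 times Flox+RI (1.01 to 1.02), and Flox+RI was 1.27-fold lower (1.26 to 1.28) than Flox+ICI, where the median over all genes was -0.24 on the log2 scale. Slc7a1 was 0.947 times (0.905 to 0.990) in the library labelled CKO+RI over Flox+RI, and 1.93-fold lower (1.84 to 2.02) in Flox+RI than in Flox+ICI, which is just under the 2-fold line. Flox+ICI tumour cells thus carried the most Slc7a1 of all 15 sums, at 83.9 CPM. Ass1, whose loss makes some tumours depend on outside arginine, was found at 16.5, 14.2 and 10.7 CPM and was not called.

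The genes called in tumour cells were the arginases and Nos2, all at low levels. Arg1 was 5.22, 14.2 and 3.64 CPM, 2.72-fold lower (2.47 to 3.01) in the library labelled CKO+RI than in Flox+RI and 3.904-fold higher (3.32 to 4.61) in Flox+RI than in Flox+ICI. Arg2 (1.55, 4.20 and 3.48 CPM) was 2.71-fold lower in the library labelled CKO+RI than in Flox+RI. Nos2 (43, 55 and 8 UMIs) was 2.29-fold lower in the library labelled CKO+RI than in Flox+RI and 4.66-fold higher in Flox+RI than in Flox+ICI. The Arg1 of the tumour gate was 0.581%, 0.945% and 1.19% of that of the macrophages of the same library, beside 0.437%, 0.962% and 0.587% for the 8 macrophage markers, all detected and summing to 68.7, 98.1 and 79.4 CPM. The part of free macrophage RNA in these values was not tested. Over all genes in tumour cells, 4.59% were higher and 8.93% lower in the library labelled CKO+RI than in Flox+RI, and 3.16% higher and 8.36% lower in Flox+RI than in Flox+ICI.

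In endothelial cells the called genes were Ass1 and Slc7a1. Ass1 had 26 UMIs (26.6 CPM, 17.4 to 39.0) in the library labelled CKO+RI, 3 UMIs (4.31 CPM, 0.889 to 12.6) in Flox+RI and 47 UMIs (42.5 CPM, 31.2 to 56.5) in Flox+ICI. The library labelled CKO+RI was 6.17-fold higher (1.89 to 31.8) than Flox+RI, and Flox+RI was 9.86-fold lower (3.17 to 49.5) than Flox+ICI. Flox+RI thus stood apart from both other libraries, on 116 cells. Slc7a1 was 20.5, 41.7 and 34.4 CPM and 2.04-fold lower (1.11 to 3.8) in the library labelled CKO+RI than in Flox+RI. Median depths of the endothelial cells were 1600, 4279 and 1391 UMIs, so the library with the lowest Ass1 was the one with the deepest cells. Over all genes in endothelial cells, 11% were higher and 3.94% lower in the library labelled CKO+RI than in Flox+RI, and 5.01% higher and 12.3% lower in Flox+RI than in Flox+ICI.

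The rest of the arginine, polyamine and tryptophan pathways was followed with lists of 20, 12 and 20 further genes and 7 known regulators. In macrophages of the library labelled CKO+RI over Flox+RI, 2 of 14 arginine genes with enough UMIs were higher and 1 lower, 1 of 12 polyamine genes was higher, 3 of 12 tryptophan genes were lower and 0 of 7 regulators were called. The median log2 ratios of these lists were -0.04, 0.17, -0.12 and 0.53, beside 0.11 over all genes. In Flox+RI against Flox+ICI the macrophages had 1 call in the 4 lists together, a tryptophan gene that was lower. Over the other 4 gates, an arginine list had 0 to 3 of 10 to 17 genes called, a polyamine list at most 1, a tryptophan list 1 to 4 and the regulators 0 to 2, and the list medians lay between -0.56 (tryptophan list, neutrophils of the library labelled CKO+RI over Flox+RI) and 0.71 (arginine list, neutrophils of Flox+RI against Flox+ICI), beside -0.22 and 0.39 over all genes.

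Of the arginine list, Gatm, which starts creatine synthesis from arginine, was 74.2 CPM in macrophages of the library labelled CKO+RI, against 21.0 for Flox+RI, 3.53-fold higher (2.90 to 4.30). In tumour cells Gatm was 5.72, 0.959 and 5.285 CPM, 5.96-fold higher in the library labelled CKO+RI than in Flox+RI and 5.51-fold lower in Flox+RI than in Flox+ICI. Nos1 and Nos3, the other nitric oxide synthases, were 2.88-fold lower (7.43 against 21.4 CPM) and 2.25-fold higher (2.48 against 1.10 CPM) in tumour cells of the library labelled CKO+RI than in Flox+RI. Slc3a2, the shared heavy chain of several amino acid carriers, was 305, 134 and 381 CPM in endothelial cells, 2.28-fold higher in the library labelled CKO+RI than in Flox+RI and 2.85-fold lower in Flox+RI than in Flox+ICI. Endothelial Gamt, the next step of creatine synthesis, was 2.57-fold higher in Flox+RI than in Flox+ICI (30.2 against 11.7 CPM), and tumour cell Ddah2 was 2.83-fold lower (1.06 against 2.996 CPM).

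Sat1, which marks polyamines for export and breakdown by acetylation, was the only polyamine gene called in the library labelled CKO+RI over Flox+RI. It was 485 against 232 CPM in macrophages, 2.09-fold higher (1.96 to 2.23), and 601 against 255 CPM in monocytes, 2.36-fold higher (1.98 to 2.82). Dhps, which uses spermidine to modify the translation factor eIF5A, and Dohh, the step after it, were called in Flox+RI against Flox+ICI. Dohh was 2.61-fold higher in neutrophils (55.2 against 21.1 CPM) and Dhps 2.01-fold lower in endothelial cells (21.6 against 43.4 CPM).

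Of the tryptophan list, Slc7a5 (LAT1), a carrier of large neutral amino acids, was 13.5 CPM in macrophages of the library labelled CKO+RI, against 109 for Flox+RI, 8.10-fold lower (6.25 to 10.7). Slc7a8 (LAT2), another such carrier, in monocytes was 18.9, 149.7 and 18.35 CPM, 7.92-fold lower in the library labelled CKO+RI than in Flox+RI and 8.16-fold higher in Flox+RI than in Flox+ICI, with the macrophage RNA in that gate as given above. Ahr, the receptor that kynurenine can activate, was rare in tumour cells, at 2.07, 0.183 and 1.56 CPM, 11.3-fold higher (6.48 to 21.5) in the library labelled CKO+RI than in Flox+RI and 8.51-fold lower (4.69 to 16.7) in Flox+RI than in Flox+ICI. Cyp1a1, a known target of Ahr, had 21 UMIs in endothelial cells (library labelled CKO+RI), against 3 for Flox+RI, a ratio of 4.98 (1.49 to 26.1). Wars, which charges tRNA with tryptophan, was 2.46-fold lower in endothelial cells of Flox+RI than of Flox+ICI (87.7 against 216 CPM), and Afmid, the enzyme after Ido1, was 2.22-fold higher in neutrophils (14.5 against 6.54 CPM).

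Of the regulators, Irf1 is a transcription factor induced by interferon and known to act at Nos2. Irf1 in endothelial cells was 4.92-fold lower in Flox+RI than in Flox+ICI (116 against 573 CPM), and in tumour cells 2.38-fold lower (70.6 against 168 CPM). In neutrophils, Irf8 was 2.59-fold higher (1.03 to 7.04) in the library labelled CKO+RI than in Flox+RI, on 15 and 8 UMIs. Cebpb, which is known to act at the Arg1 gene, was 2.45-fold higher in endothelial cells of the library labelled CKO+RI than of Flox+RI (56.3 against 23.0 CPM). No regulator was called in macrophages in either comparison.

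The genes most like each member were sought over the 15 sums of library and gate. Likeness was Pearson's r of log2(CPM + 1) among 10018 genes, as a description over points that share libraries and cell types. The 3 genes most like Arg1 were C3ar1 (r = 0.95), St18 and Hmox1, and those most like Arg2 were Slc7a11 (r = 0.99), the cystine carrier, C5ar2 and Spatc1. Abca1 (r = 0.88), Trf and Dnmbp were closest to Nos2, and Hirip3 (r = 0.96), Eif4g1 and Larp1 to Slc7a1. For Slc7a2 these were AI504432 (r = 0.95), Maf and Kcnk13, for Ass1 Plxdc1 (r = 0.94), Rasa4 and H2-DMb1, and for Odc1 Wwc1 (r = 0.99), Six3 and Ereg. Ido1 reached 20 CPM in no sum and was left out.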

How the data were processed

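Single-cell RNA-seq counts of 3 libraries, 1 a group, were used. Per the file headers the matrices came from Cell Ranger 6.1.2, and the submitters' processing notes name Cell Ranger 6.0, Seurat 5.0.3 and mm10; the authors deposited raw UMI counts per gene and barcode, with no barcode under 500 UMIs. From these counts, barcodes under 200 genes or over 20% mitochondrial UMIs were dropped, and doublets scored with scrublet (scanpy 1.11.5) were removed at 0.8% per 1000 barcodes, which took 653, 1367 and 915 barcodes (CKO+RI, Flox+RI, Flox+ICI). Cells were scored by the mean of ln(1 + UMIs per 10000) over a type's markers, divided by a minimum set for that type (0.4 to 1.5). A gated cell reached that minimum with at least 2 markers detected and a 1.25-fold lead of this score over the next type. The gate thresholds were set after seeing the data, and the members and gene lists were chosen with earlier results of these data known.

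UMIs were summed per gate and library and scaled to 1000000 UMIs of the gate (CPM) with exact Poisson 95% intervals; ratios of 2 libraries have exact conditional binomial intervals, and a count of 0 was read as up to 3 counts. Shares of cells have exact Clopper-Pearson intervals. All these cover counting error only. Cell types were compared with edgeR 4.0.16 (R 4.3.3; quasi-likelihood test, library term, Benjamini-Hochberg adjustment over 12363 genes a gate). Pathway genes past the call rule are named, at most 4 a list and comparison by size of ratio, and for each member the 3 genes with the most similar pattern. The values of 1 gene that the rule names are not reported here. Alternatives were DESeq2 1.42.0, no count filter, other cell filters and gates, Leiden clusters, thinning to 1000 UMIs and leaving out each library. The ratio and interval code was tested on simulated data.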

Additional observations from a re-analysis of the deposited data

Results flagged for a closer look

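Nos2 in the library labelled CKO+RI over Flox+RI was called in opposite directions in different cell types. The ratio was 4.42 in macrophages, 0.0581 in monocytes and 0.436 in tumour cells. The difference between these ratios was not tested. In monocytes, 32 of the 33 Nos2 UMIs of Flox+RI lay in cells of macrophage clusters.

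Slc7a2 was higher in a cell type outside the 5 compared. Alveolar macrophages, the resident macrophages of the air spaces, held 300.5 CPM in the library labelled CKO+RI, 240.1 for Flox+RI and 286 for Flox+ICI, on 196, 74 and 285 cells. The highest of the 5 gates was 74.0 CPM.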

How the results depend on the processing

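Thinned to 1000 UMIs a cell, 1 gene and gate pair was higher and 6 lower in the library labelled CKO+RI than in Flox+RI, against 2 and 10. Thinning left out the shallower cells, among them 111 of 651, 1819 of 2133 and 769 of 1705 neutrophils (CKO+RI, Flox+RI, Flox+ICI). It also lowers every count, so a call can be lost for want of UMIs. In Flox+RI against Flox+ICI, 10 pairs were higher as reported, 5 with Leiden clusters in place of gates, 6 with monocytes restricted to the monocyte cluster (chosen after seeing the data) and 4 when thinned; 1 was lower as reported, 0 when thinned and 2 with no minimum of UMIs. Directions turned for neutrophil Slc7a1 with doublets kept (log2 0.045 for the library labelled CKO+RI over Flox+RI, -0.40 for Flox+RI against Flox+ICI), for tumour cell Nos2 in the thinned draw used here (0.55, library labelled CKO+RI over Flox+RI, on too few UMIs to be called; the draw behind the shares of cells held 2 and 4 UMIs, the direction of the full counts), for monocyte Slc7a2 in the monocyte cluster (-0.10, Flox+RI against Flox+ICI), and for monocyte Arg1 against the other gates (-1.22 with Leiden clusters, -1.58 in the monocyte cluster); the cause was not tested. Macrophage Arg2 in Flox+RI against Flox+ICI was just under 2-fold with Leiden clusters (log2 0.99). Leaving out 1 library gave 10 to 12 pairs higher and 10 to 12 lower between cell types, against 13 and 12. No paired analysis was possible because each group is 1 library; without the library term the cell types gave 13 and 12. Of the called results, 5 of 12 in the library labelled CKO+RI over Flox+RI, 2 of 11 in Flox+RI against Flox+ICI and 16 of 25 between cell types kept their call under every alternative run. Over all alternatives, 94 of 108 values kept their call in the library labelled CKO+RI over Flox+RI, 80 of 99 in Flox+RI against Flox+ICI and 280 of 300 between cell types. The tallies between libraries hold values that could not change. Dropping the minimum of UMIs cannot alter a called pair (12 and 11 values), and restricting the monocytes leaves the sums of the other gates as they were. With 1 library a group, the spread between mice is unknown.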

Other observations

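Cell types outside the 5 compared also carried these genes. Arg2 stood at 113 CPM in alveolar type 2 cells, the surfactant-making cells of the lung, in the library labelled CKO+RI, 205.5 for Flox+RI and 144 for Flox+ICI (122, 67 and 299 cells). T cells, whose division needs arginine, held 74.3, 77.5 and 70.1 CPM of Slc7a1 and 51.1, 85.6 and 51.6 CPM of Ass1 (462, 445 and 692 cells). Their Slc7a1 was above that of the tumour cells in the library labelled CKO+RI (41.1 CPM) and Flox+RI (43.4 CPM), but not in Flox+ICI (83.9 CPM). Odc1 in T cells was 424, 406 and 410 CPM. The 625, 2461 and 912 cells in no gate held 109, 326 and 20.9 CPM of Arg1.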
